A study of Mus musculus with 20 samples.

Results

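Interferon-stimulated genes are the genes that a cell switches on when it senses interferon, and 48 of them were followed here in the livers of Titan and control mice. The members were chosen by symbol, from a list of established interferon targets, and matched to the Ensembl gene IDs of the count files through the GENCODE M21 annotation of GRCm38. All 48 were found among the 55573 gene IDs, and 47 passed the filter on low counts that left 13783 genes for testing. The exception was Ifi47, a GTPase gene with 11 reads over the 20 libraries and between 0 and 2 reads in any mouse. Titan mice are a non-inbred line bred over decades for high body mass, and the controls are an unselected outbred line of the same facility. All were males, which the paper describes as fed the standard breeding diet, and no group received a treatment or carried a transgene. The paper describes specific pathogen-free housing at the breeding facility and individually ventilated cages at another site, without saying which held these mice. Liver RNA depleted of rRNA was sequenced from 5 Titan and 5 control mice of 11 weeks and from 5 of each line of 19–21 weeks. Each library came from 1 mouse and held between 6794935 and 23295028 reads on genes. Levels are given below as CPM, the counts per 1000000 reads on genes after scaling by the trimmed mean of M values (TMM). The summed level of 5 hepatocyte markers (Alb, Apoa1, Cps1, Fabp1 and Cyp2e1) ranged from 64161 to 97128 CPM over the 20 mice, so that the defining markers of the labelled tissue were present.

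Type I interferon binds the receptor pair IFNAR1 and IFNAR2, and the receptor's kinases then phosphorylate STAT proteins. STAT2, a further STAT protein and IRF9 form the complex ISGF3, which binds a DNA element called the interferon-stimulated response element (ISRE). Interferon gamma acts through a different receptor and a STAT dimer that binds the gamma-activated site (GAS). The induced genes encode sensors of viral RNA and DNA, proteins that block translation or assembly of viruses, GTPases that attack vacuoles of intracellular pathogens, peptide transporters and chemokines. Since 1 signal switches on many of these genes, a response is seen as many of them moving together, whereas a difference between lines in 1 gene stands apart from the others. The comparisons below ask which of these patterns the members showed.

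Promoters are shown for 5 members, chosen to set 3 genes that deviated together between mice (Ifit1, Isg15 and Rsad2) beside 2 that differed between the lines (Trim30d and Bst2). They are the 150 bases before the transcription start in RefSeq on GRCm38.p6, read 5′ to 3′ on the strand of the gene. Capitals mark each match to the ISRE, searched on both strands as the letters GAAA, any 2 bases and GAAA, which read TTTC, any 2 bases and TTTC on the opposite strand.
Ifit1, chr19:34640739-34640888, plus strand: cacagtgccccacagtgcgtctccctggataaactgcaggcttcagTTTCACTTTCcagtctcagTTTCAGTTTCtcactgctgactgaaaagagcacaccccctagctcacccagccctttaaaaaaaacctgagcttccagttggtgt
Isg15, chr4:156200819-156200968, minus strand: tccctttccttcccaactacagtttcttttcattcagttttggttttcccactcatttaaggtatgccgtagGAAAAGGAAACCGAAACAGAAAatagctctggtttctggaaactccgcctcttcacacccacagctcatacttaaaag
Rsad2, chr12:26456453-26456602, minus strand: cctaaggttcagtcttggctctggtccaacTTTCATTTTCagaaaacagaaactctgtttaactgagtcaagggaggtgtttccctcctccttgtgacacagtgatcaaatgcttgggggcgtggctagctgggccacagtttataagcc
Trim30d, chr7:104507850-104507999, minus strand: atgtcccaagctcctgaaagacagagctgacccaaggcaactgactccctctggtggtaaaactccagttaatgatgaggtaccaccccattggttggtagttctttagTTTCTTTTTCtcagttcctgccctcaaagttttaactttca
Bst2, chr8:71537473-71537622, minus strand: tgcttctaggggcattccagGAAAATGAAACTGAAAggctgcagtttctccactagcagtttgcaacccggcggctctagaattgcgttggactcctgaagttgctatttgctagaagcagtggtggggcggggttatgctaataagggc
The stretch in Isg15 holds 3 overlapping matches and that in Bst2 holds 2, and the Bst2 stretch also overlaps a match to the GAS letters TTCNNNGAA. Of the 48 members, 36 had an entry in the promoter table, which covers 250 bases before and 50 bases after each start. An ISRE match was present in 22 of these 36 (61.1%), against 3.99% of 27025 genes in the table and 3.44% of all 32851 windows. A GAS match was present in 9 of 36 (25%), against 9.55% of all genes. Among the named genes, Stat2, Ifih1, Ifit3 and Oas1a also held an ISRE match, whereas Mid1, Irf7, Irf9 and Cxcl9 did not. A match is a string of letters in the reference genome and was not tested as a binding site in these mice.

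In unstimulated liver, the members spanned a wide range of levels. Per kilobase of exon, the highest mean level over the 20 mice was that of Bst2 (68.1 CPM per kb), which encodes tetherin, a protein that holds budding viruses to the cell surface. Iigp1 (53.8 CPM per kb), an immunity-related GTPase, Ifi27 (31.9 CPM per kb) and Trim25 (19.1 CPM per kb), a ubiquitin ligase that modifies the RNA sensor RIG-I, came next. Stat2 stood at 15.03 CPM per kb, while the classical inducible genes Isg15, Ifit1 and Rsad2 stood at 4.18, 2.31 and 1.88 CPM per kb. At the low end, Gbp6, Mx1 and Oas3 had 0.244, 0.209 and 0.142 CPM per kb, and Ifi47 had 0.0193. Reads of some members cannot be separated fully from those of neighbouring copies. Of the 50-base windows in Gbp6, Oas1a, Ifit3 and Ifit3b transcripts, 70.7%, 57.6%, 51.2% and 45.0% occur in another gene as well, and reads that fit several genes are not in the counts. The values of these 4 genes therefore rest on their unique stretches.

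At 11 weeks of age, 6 of the 47 tested members differed between the lines at an adjusted p under 0.05, with 3 higher and 3 lower in Titan mice. This share (12.8%) was near that of all tested genes, of which 14.9% passed the same threshold, 7.23% as higher and 7.69% as lower. The genes higher in Titan mice were Mid1 and Trim30d, both of the TRIM family of ubiquitin ligases, and Cxcl9, a chemokine that attracts T cells. The lower ones were Bst2, Ifi27, which encodes a small hydrophobic protein, and Parp14, an ADP-ribosyltransferase. The median log2 fold change of the 47 was -0.10, against -0.02 over all genes, and 37 members differed by less than 0.5 on the log2 scale. Here 18 members had a positive and 29 a negative fold change. The median was -0.04 to -0.06 without young control mouse 2 or young Titan mouse 2 or 3, and -0.16 and -0.17 without young Titan mouse 4 or 5.

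At 19–21 weeks, 5 of 47 passed the threshold (10.6%, against 9.12% of all tested genes), 4 as higher and 1 as lower, against 4.24% and 4.88% of all genes. Mid1, Trim30d, Stat2 and Zbp1, a sensor of left-handed nucleic acid, were higher in Titan mice. Ifih1, which encodes the RNA sensor MDA5, was lower. The median log2 fold change was 0.09, against 0.01 over all genes, with 28 positive and 19 negative values. Without older Titan mouse 4 this median was -0.06, without older control mouse 1 or 3 it was 0.00, without older Titan mouse 1 or 2 it was 0.03, and without older Titan mouse 3 or 5 or older control mouse 5 it rose to 0.18, 0.20 and 0.13. Only Mid1 and Trim30d passed at both ages, 4 members passed at 11 weeks alone and 3 at 19–21 weeks alone, while 38 passed at neither age. At an unadjusted p under 0.05, 11 members stood out at each age, which is 23.4% of them against 27.5% of all genes at 11 weeks and 24.1% at 19–21 weeks. The comparisons of the lines at each age use different mice.

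**Figure D1:**
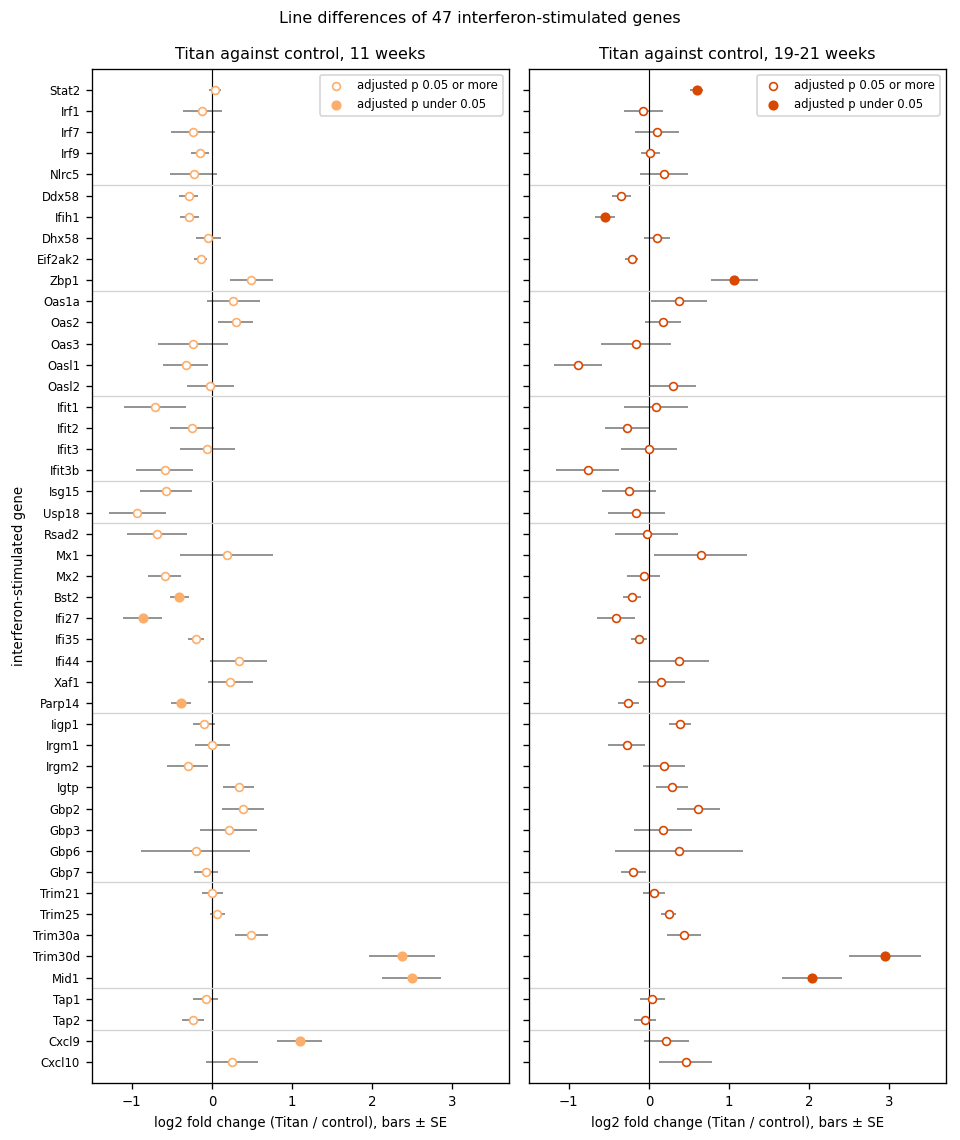
Log2 fold change of Titan against control mice with its standard error for the 47 tested members at 11 weeks (left) and 19–21 weeks (right), grouped by role, with filled points for an adjusted p under 0.05. Trim30d and Mid1 lie above 2 at both ages, while most other members lie within 0.5 of 0.

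Trim30d separated the lines at both ages. Its gene lies at chr7:104470014-104507849 on the minus strand, beside Trim30a, a paralog known to restrain inflammatory signalling. In 11-week-old controls its levels were 2.53, 0.583, 2.23, 0.915 and 0.690 CPM, and in Titan mice of that age 7.86, 6.64, 7.30, 7.94 and 6.81 CPM. The older controls had 0.172, 2.71, 0.755, 0.395 and 0.839 CPM, and the older Titan mice 7.34, 9.09, 4.74, 10.5 and 6.20 CPM. Every Titan mouse was above every control mouse at both ages. The log2 fold change was 2.37 ± 0.41 (SE, n = 5 per group, adjusted p = 0.00046 in edgeR) at 11 weeks and 2.95 ± 0.45 (adjusted p = 0.000269) at 19–21 weeks. Trim30a ranged from 4.98 to 6.64 CPM in young controls and from 6.48 to 10.1 CPM in young Titan mice, with a log2 fold change of 0.49 ± 0.21 that did not pass in the fit of all mice (adjusted p = 0.121) but passed in the fit of only the young groups, and 0.43 ± 0.21 (adjusted p = 0.216) in older mice. Counts of both genes summed gave 1.09 ± 0.19 (adjusted p = 0.000509) and 1.14 ± 0.20 (adjusted p = 0.000903). Of the Trim30d windows 7.49% and of the Trim30a windows 5.98% are shared with other genes.

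The TRIM genes around Trim30d also differed between the lines, and not in 1 direction. Within 500000 bases of it, 7 genes were tested, Trim30a among them, and 4 passed at both ages, while over the whole genome 5.30% of tested genes did so. Trim34a and Trim12a were higher in Titan mice, with log2 fold changes of 1.19 and 2.47 at 11 weeks and of 1.30 and 3.83 at 19–21 weeks. Trim6 (-1.75 at both ages) and Trim34b (-6.33 and -6.78) were lower. Trim5 passed at 19–21 weeks alone, with a log2 fold change of 3.35. These neighbours were looked up after the values of Trim30d were known, and they include close copies of each other. Around other called members, 5 of 25 tested genes near Bst2, 2 of 9 near Zbp1 and 2 of 42 near Stat2 passed at both ages. Near Mid1, Ifih1, Cxcl9, Ifi27, Parp14 and Mx2 0 did so.

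Mid1 encodes a microtubule-associated ubiquitin ligase and is known for spanning the pseudoautosomal boundary of the mouse sex chromosomes; on the X it lies at chrX:169685199-170005736. Young controls had 1.35, 2.42, 1.63, 1.65 and 1.45 CPM, against 11.2, 3.99, 19.5, 7.25 and 5.88 CPM in young Titan mice. In the older mice the levels were 2.40, 1.17, 1.83, 3.56 and 2.52 CPM in controls and 4.89, 7.33, 9.36, 11.9 and 12.1 CPM in Titan mice. The lines did not overlap at either age, and the range in CPM was wider in Titan mice at both ages, while the SD relative to the mean was not larger in Titan mice at 19–21 weeks. Log2 fold changes were 2.49 ± 0.37 (adjusted p = 0.000114) and 2.03 ± 0.38 (adjusted p = 0.00162). Mid1 shares 14.96% of its windows, most with the pseudogene Mid1-ps1, and of 3 tested neighbours within 500000 bases 1 passed at 11 weeks and 0 at 19–21 weeks.

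Stat2, the STAT protein specific to type I and III interferon signalling, differed at 19–21 weeks. Controls of 11 weeks had 94.3, 85.4, 83.2, 84.02 and 101 CPM and Titan mice of 11 weeks 99.2, 79.2, 97.0, 102 and 83.2 CPM, so that the young groups overlapped (log2 fold change 0.04 ± 0.08, adjusted p = 0.814). At 19–21 weeks the controls had 62.8, 74.0, 68.6, 69.6 and 73.0 CPM and the Titan mice 115, 106, 102, 99.2 and 103 CPM. All 5 older Titan mice lay above all 5 older controls, with a log2 fold change of 0.59 ± 0.08 (adjusted p = 8.71e-05). Each older control also lay below each younger control, although this difference of -0.36 ± 0.08 did not pass (adjusted p = 0.106). Between the lines, the change with age differed by 0.56 ± 0.11 on the log2 scale (adjusted p = 0.0905 in edgeR, which misses the threshold, and 0.00388 in DESeq2). DESeq2 also called the older controls lower than the younger ones (log2 fold change -0.36, adjusted p = 0.00737). Irf9, which encodes the partner of STAT2 in ISGF3, was at 21.7, 27.1, 29.1, 30.4 and 22.9 CPM in young controls and 22.1, 23.6, 21.9, 26.1 and 24.8 CPM in young Titan mice. The older controls had 25.04, 32.0, 25.1, 27.0 and 31.8 CPM and the older Titan mice 34.8, 29.6, 22.7, 31.0 and 24.3 CPM. The groups overlapped throughout, and the log2 fold change between the older groups was 0.01 ± 0.12 (95% interval -0.22 to 0.25).

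Irf7, the regulator that amplifies type I interferon production, overlapped between the lines at both ages. Young controls had 8.44, 12.9, 10.1, 18.2 and 14.7 CPM and young Titan mice 7.79, 9.46, 9.41, 12.9 and 14.9 CPM. In older controls it stood at 11.7, 16.97, 15.2, 16.7 and 16.8 CPM, and in older Titan mice at 17.5, 20.2, 7.05, 27.0 and 10.8 CPM. Both the highest and the lowest of the 20 values were in older Titan mice. The remaining regulators, Irf1 and Nlrc5, had log2 fold changes from -0.23 to 0.19 over both ages, and neither passed.

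Among the 5 sensors, Zbp1 and Ifih1 passed at 19–21 weeks in opposite directions. Zbp1 had 1.80, 2.80, 1.83, 3.43 and 3.19 CPM in older controls and 3.81, 4.79, 4.38, 9.45 and 4.08 CPM in older Titan mice. The groups did not overlap, but the value of Titan mouse 4 was well above the other 4 Titan values, and the log2 fold change was 1.06 ± 0.30 (adjusted p = 0.0272). It lost the threshold without that mouse, and likewise without control mouse 1 or control mouse 3 of that age, with log2 fold changes down to 0.74 and adjusted p up to 0.114. At 11 weeks Zbp1 had 3.80, 5.66, 4.41, 3.60 and 4.28 CPM in controls and 5.24, 5.94, 3.14, 9.83 and 6.60 CPM in Titan mice, which overlapped (0.49 ± 0.27, adjusted p = 0.258). Ifih1 had 45.7, 57.6, 43.2, 53.4 and 53.0 CPM in older controls and 36.8, 41.7, 29.5, 32.2 and 32.8 CPM in older Titan mice. Every Titan mouse was below every control, and the log2 fold change was -0.54 ± 0.12 (adjusted p = 0.00874). In young mice the controls had 38.4, 38.1, 42.1, 56.0 and 48.4 CPM and the Titan mice 34.4, 39.5, 28.7, 39.6 and 41.5 CPM, with overlap and no call (-0.28 ± 0.12, adjusted p = 0.14). Ddx58, which encodes RIG-I, and Eif2ak2, the kinase PKR, had log2 fold changes of -0.34 and -0.21 at 19–21 weeks that did not pass, and Dhx58 of 0.10.

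Of the 9 other antiviral effectors, 3 passed at 11 weeks (33.3%), all lower in Titan mice, where 7.69% of all tested genes were lower. This role was drawn up with earlier results known, and over all 47 tested members 12.8% passed, against 14.9% of all tested genes. Bst2 had 67.5, 64.7, 66.0, 65.5 and 75.9 CPM in young controls and 46.4, 53.5, 53.8, 49.9 and 52.7 CPM in young Titan mice, without overlap (log2 fold change -0.41 ± 0.11, adjusted p = 0.0196). It lost the threshold without control mouse 5 or Titan mouse 1 of that age, where the count of lower members fell to 1. Older controls had 52.3, 75.7, 81.1, 56.3 and 73.8 CPM and older Titan mice 71.4, 56.7, 46.3, 63.1 and 56.4 CPM, which overlapped (-0.21 ± 0.12). Ifi27 had 32.4, 56.0, 67.6, 58.4 and 74.0 CPM in young controls and 27.2, 28.1, 36.3, 26.01 and 40.3 CPM in young Titan mice. Control mouse 1 fell within the Titan range, and the log2 fold change was -0.87 ± 0.24 (adjusted p = 0.0171). In older mice Ifi27 ranged from 38.3 to 64.4 CPM in controls and from 22.6 to 66.3 CPM in Titan mice, with a log2 fold change of -0.41 ± 0.24. Parp14 had 39.1, 54.9, 50.8, 56.9 and 57.6 CPM in young controls and 32.3, 37.8, 36.4, 45.5 and 46.1 CPM in young Titan mice. These overlapped at control mouse 1, and the log2 fold change of -0.39 ± 0.13 passed narrowly (adjusted p = 0.0419) and was lost in 5 of 9 other settings, where adjusted p reached 0.0609. The older values of Parp14, from 42.2 to 60.3 CPM in controls and from 32.8 to 48.4 CPM in Titan mice, gave -0.26 ± 0.13.

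Cxcl9 was the only chemokine that passed. Young controls had 1.77, 1.92, 2.13, 2.68 and 2.07 CPM and young Titan mice 3.38, 3.75, 4.89, 5.66 and 5.08 CPM, without overlap (log2 fold change 1.09 ± 0.28, adjusted p = 0.011). Older controls had 3.52, 2.44, 3.24, 2.64 and 6.63 CPM and older Titan mice 2.85, 7.82, 3.28, 4.30 and 3.14 CPM, with overlap (0.21 ± 0.28, adjusted p = 0.688). Cxcl10, which binds the same receptor, had 0.506, 0.916, 1.29, 1.10 and 0.966 CPM in young controls, 0.482, 1.33, 1.31, 1.59 and 1.18 CPM in young Titan mice, 0.772, 1.44, 1.03, 1.32 and 1.09 CPM in older controls and 0.680, 1.37, 2.07, 2.36 and 1.10 CPM in older Titan mice. The ranges of Cxcl10 overlapped at both ages, and neither comparison passed. Markers of T and NK cells, which these chemokines attract, had a summed level of 1.75 to 5.47 CPM over 10 genes in the 20 mice. Of these 10 genes, only Cd3e and Cd4 passed the filter on low counts. Cd3e was higher in Titan mice at both ages (log2 fold changes 3.94 and 2.02), and Cd4 was lower at 11 weeks (-1.71). Cd3d and Cd3g stayed at or under 0.544 CPM in every mouse.

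**Figure D2:**
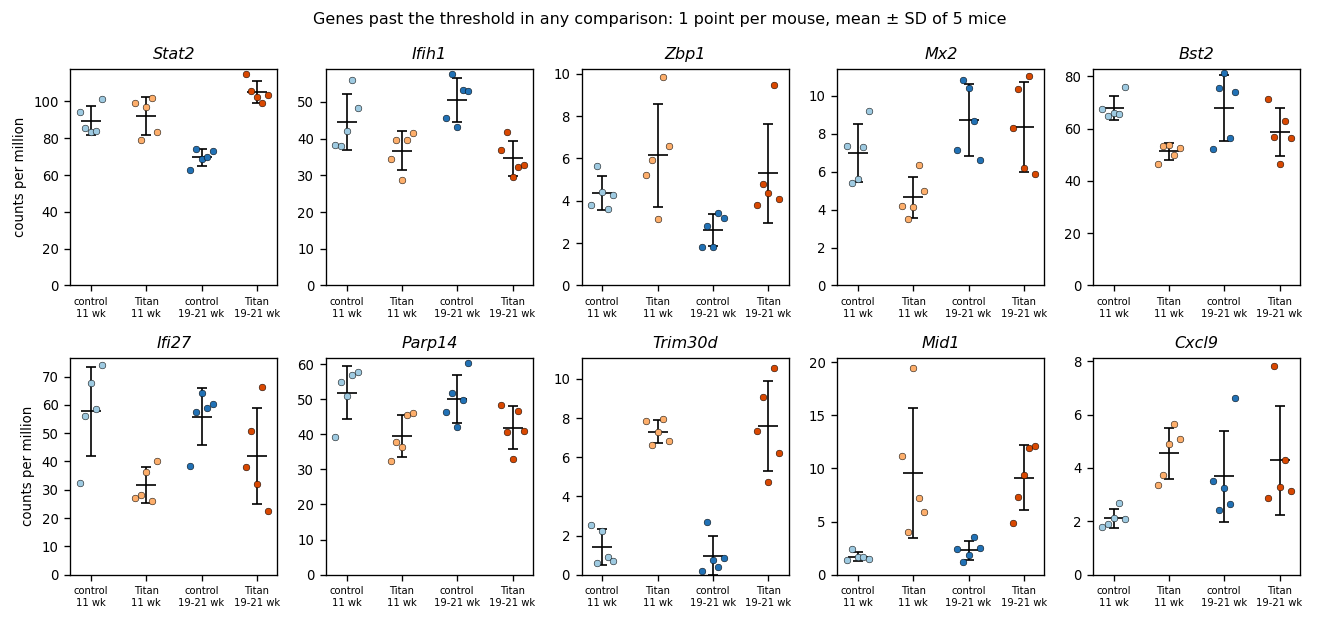
CPM of the 10 members that passed the threshold in any comparison, with 1 point per mouse and the mean ± SD of 5 mice in each of the 4 groups. Trim30d and Mid1 separate the lines at both ages, Stat2, Ifih1 and Zbp1 separate them at 19–21 weeks, and Bst2 and Cxcl9 at 11 weeks.

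Ifit1, Rsad2, Isg15 and Oas1a, commonly read as markers of an interferon response, did not separate the lines at either age, unlike Stat2 at 19–21 weeks. Ifit1, which binds viral RNA that lacks a cap methylation, had 4.81, 7.75, 9.81, 11.2 and 6.48 CPM in young controls and 3.24, 3.36, 3.21, 7.05 and 7.65 CPM in young Titan mice. It had 3.52, 7.13, 3.99, 5.53 and 8.31 CPM in older controls and 3.94, 6.25, 3.65, 13.6 and 2.21 CPM in older Titan mice. Its log2 fold changes were -0.71 ± 0.39 (adjusted p = 0.253) and 0.09 ± 0.40 (adjusted p = 0.925), and the groups overlapped at both ages. Rsad2, the radical-SAM enzyme viperin, had 5.99, 11.0, 15.6, 12.6 and 9.86 CPM in young controls, 3.93, 7.81, 4.16, 7.64 and 10.5 CPM in young Titan mice, 5.57, 10.6, 5.93, 6.59 and 9.14 CPM in older controls and 3.94, 7.52, 6.32, 16.4 and 2.38 CPM in older Titan mice. As with Ifit1, the highest and the lowest value of Rsad2 among the older mice were both in Titan mice, and the fold changes of -0.69 ± 0.38 and -0.03 ± 0.39 did not pass. Isg15, a ubiquitin-like modifier, had 2.28, 3.998, 5.30, 4.63 and 2.62 CPM in young controls, 2.34, 2.19, 1.75, 3.47 and 3.03 CPM in young Titan mice, 2.23, 4.51, 2.27, 3.03 and 5.12 CPM in older controls and 4.35, 3.81, 1.09, 3.29 and 1.87 CPM in older Titan mice. These groups overlapped too, with log2 fold changes of -0.57 ± 0.32 and -0.25 ± 0.33 and 95% intervals of -1.20 to 0.05 and -0.90 to 0.41. Oas1a, which makes the second messenger of RNase L, stayed at or under 1.10 CPM, with 0.759, 0.7497, 0.495, 0.732 and 0.552 CPM in young controls, 0.827, 0.547, 0.803, 0.894 and 0.840 CPM in young Titan mice, 0.6004, 0.181, 0.863, 0.527 and 1.01 CPM in older controls and 0.951, 0.879, 0.243, 1.10 and 1.02 CPM in older Titan mice. Its 191 reads over 20 mice came with wide intervals (-0.38 to 0.91 at 11 weeks and -0.31 to 1.06 at 19–21 weeks).

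The other members that did not pass are given by role. Over all tested genes 14.9% passed at 11 weeks and 9.12% at 19–21 weeks. A count of 0 in a role of 4 to 8 genes is near those shares. The 4 IFIT genes, of which 0 passed at either age, ranged in log2 fold change from -0.71 to -0.06 at 11 weeks and from -0.77 to 0.09 at 19–21 weeks. The neighbouring copies Ifit3 and Ifit3b had -0.06 and -0.59 at 11 weeks and, summed, -0.21 ± 0.31. Of the 5 oligoadenylate synthetase genes 0 passed in edgeR, with a range from -0.33 to 0.30 and then from -0.88 to 0.38, where the lowest was Oasl1. Oasl1 was called lower at 19–21 weeks by DESeq2 (log2 fold change -0.89, adjusted p = 0.0293), in the fit of only the groups compared and without young control mouse 4. Usp18, the protease that removes ISG15 and dampens the receptor, was lower in all young Titan mice (1.45 to 3.20 CPM) than in all young controls (4.22 to 7.07 CPM), with a log2 fold change of -0.93 that missed the threshold (adjusted p = 0.0846) and passed it in the fit of only the groups compared and without older Titan mouse 4. Of the 8 tested GTPase genes 0 passed in edgeR at either age, and Iigp1, the most abundant of them, had -0.10 and 0.39. At 19–21 weeks Iigp1 was called by DESeq2 (log2 fold change 0.39, adjusted p = 0.0479) and in edgeR without young control mouse 2 or older Titan mouse 3, and Gbp2 without older control mouse 5. The peptide transporter genes Tap1 and Tap2 had fold changes between -0.24 and 0.04. In total, 5 members at 11 weeks and 7 at 19–21 weeks had no overlap between the lines, which occurred for 11.9% and 7.63% of all tested genes.

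Between 11 and 19–21 weeks, 1 member passed as higher in older Titan mice (1.25% of all tested genes passed, 0.486% as higher) and 0 in controls (0.0871% of all genes), where 4 members had an unadjusted p under 0.05 and DESeq2 called 1, Stat2. The one in Titan mice was Mx2, which encodes a dynamin-like GTPase and is annotated in this reference as a polymorphic pseudogene. It had 4.20, 3.52, 4.16, 6.35 and 4.96 CPM in young and 8.29, 10.4, 6.20, 11.0 and 5.86 CPM in older Titan mice, with overlap and a log2 fold change of 0.86 ± 0.21 (adjusted p = 0.0476). In controls Mx2 had 7.34, 5.41, 5.60, 7.32 and 9.17 CPM at 11 weeks and 7.12, 10.8, 10.4, 8.70 and 6.63 CPM later (0.33 ± 0.20, adjusted p = 0.897). Between the lines at 11 weeks, DESeq2 called Mx2 lower in Titan mice (log2 fold change -0.58, adjusted p = 0.0461), as did edgeR without young control mouse 2 or 3 or young Titan mouse 4. The call with age in Titan mice was lost when any of 13 of the 20 mice was left out and in 4 other settings. Its neighbour Mx1, at 0.085 to 2.45 CPM, did not pass in any comparison. For the difference of the age changes between the lines, 0 members passed (0.00726% of all genes did), with 3 at an unadjusted p under 0.05 and 1, Stat2, called by DESeq2. In Titan mice 33 of the 47 members had a positive fold change with age and 14 a negative one, with a median of 0.14 against 0.02 over all genes. This median was 0.04 without older Titan mouse 4 and 0.09 without young or older Titan mouse 1.

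Within groups, by contrast, the members deviated together from mouse to mouse. For each mouse, the members whose log2 CPM lay above the mean of that mouse's own group were counted, so that neither line nor age enters. Among young controls the counts were 8, 28, 26, 36 and 25 of 47, and among young Titan mice 13, 16, 14, 38 and 39. In older controls 10, 28, 14, 27 and 41 members lay above the mean, and in older Titan mice 36, 36, 5, 40 and 8. Over all tested genes the same share stayed between 49.3% and 53.0% in every mouse. High and low mice were present in each of the 4 groups, and the older Titan mice held both 3 of the high and 2 of the low ones. Of the 37 members that passed in none of the 5 comparisons, 5, 24, 22, 31 and 19 lay above the mean in young controls, 10, 13, 8, 31 and 32 in young Titan mice, 8, 20, 10, 20 and 32 in older controls and 30, 30, 4, 32 and 7 in older Titan mice.

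The same was counted gene by gene. In each mouse the other members take a majority side, above or below the group mean, and a member lay on that side in a median of 15 of the 20 mice (range 7 to 19). For the 13736 other tested genes the median was 10, and 472 of them (3.44%) reached 15 mice, against 31 of the 47 members (66.0%). With each mouse left out in turn, 28 to 34 members were on the majority side in at least 14 of the 19 remaining mice, against 4.06% to 5.58% of the other genes. In the 10 control mice alone the member median was 7 mice and in the 10 Titan mice 8, against 5 for other genes in each. Deviations from a group mean sum to 0 over the 5 mice, so the mice are not independent points and no test is given.

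Irf7 followed the majority most often (19 of 20 mice), then Irf9, Ifit1, Isg15, Gbp6 and Parp14 (18), and Ifit2, Ifit3 and Ddx58 (17). By role, the medians were 17 for the IFIT genes, 16.5 for Isg15 and Usp18, 16 for the transcription factors and for the sensors, and 11 for the TRIM genes. Among the genes least often on the majority side were Mid1 (7 mice), Trim25 (8), Oas1a (10), and Oas2, Bst2 and Trim30d (11), while Stat2 was at 12. Of the members that differed between the lines, Mid1, Trim30d, Bst2 and Stat2 are thus in the lower part of this order, while Parp14 (18), Ifi27 and Ifih1 (16) and Zbp1 (15) are not. Members with an ISRE match (22) and without (13) both had a median of 15 mice.

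**Figure D3:**
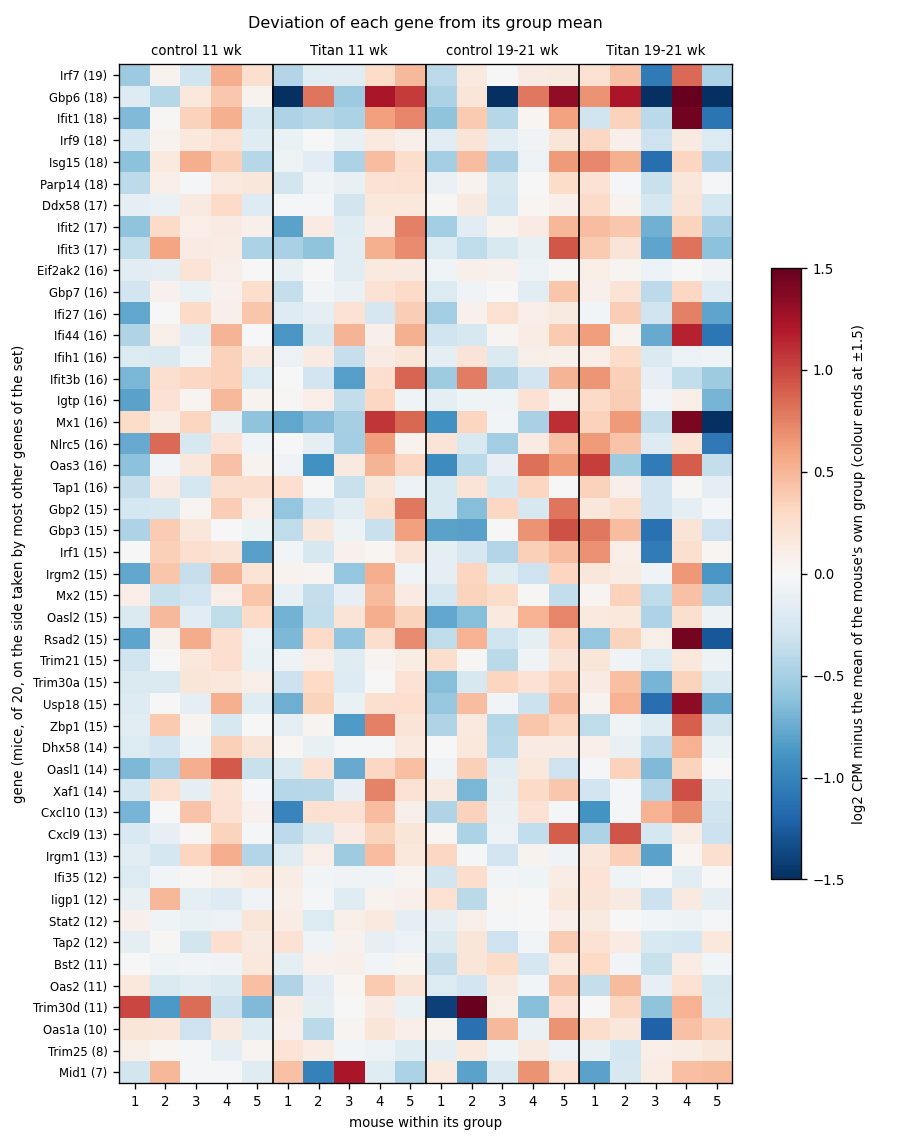
Log2 CPM of each of 47 members (rows, ordered by the number of mice on the majority side, given in parentheses) minus the mean of the mouse's own group, in 20 mice (columns), with red above and blue below the mean. Rows in the upper part change colour together between mice, as in older Titan mice 3, 4 and 5. Mid1, Trim25, Oas1a and Trim30d at the foot follow in fewer of the 20 mice, although Trim30d does so in older Titan mice 3, 4 and 5.

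Older Titan mouse 4 had the most members at least 1.5-fold above the mean of the other 4 mice of its group, 16 of them, with 9 at least 2-fold above it. There Gbp6 was 4.64-fold, Ifit1 3.38-fold (13.6 against 4.01 CPM), Rsad2 3.25-fold, Mx1 3.11-fold and Usp18 2.98-fold higher. The folds of Gbp6 and Mx1 rest on few reads. Gbp6 had 39 reads in mouse 4 against 8, 17, 0 and 1 in mice 1, 2, 3 and 5, and Mx1 had 29 against 8, 14, 5 and 1. Titan mouse 3 of that age had 19 members at or under 0.67 of the mean of the others, 12 of them at or under 0.5, and Titan mouse 5 had 17 and 9. Irf7 was at 27.0 CPM in mouse 4, 7.05 CPM in mouse 3 and 10.8 CPM in mouse 5. Older control mouse 5, with 41 members above the mean, had 12 members at least 1.5-fold above the others. Group means of the inducible members in older Titan mice average over mice that differed several-fold.

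Interferons themselves were almost undetected. Of 21 interferon genes, 17 had no read in any of the 20 mice, and the other 4 had 8 reads together (Ifng 4, Ifnk 2, Ifna6 1 and Ifnb1 1), so that 0 could be tested. Among receptors and kinases 1 of 8 tested genes passed at each age (12.5%, against 14.9% and 9.12% of all tested genes). It was Ifnar2, a chain of the type I interferon receptor, with 38.7, 38.5, 33.6, 34.7 and 34.1 CPM in young controls and 22.1, 29.7, 25.5, 27.7 and 22.6 CPM in young Titan mice. Older controls had 35.4, 40.1, 31.7, 38.1 and 34.8 CPM and older Titan mice 27.6, 24.2, 27.8, 31.5 and 24.9 CPM. Ifnar2 was lower in every Titan mouse than in every control of its age, with log2 fold changes of -0.49 ± 0.09 (adjusted p = 0.000847) and -0.40 ± 0.09 (adjusted p = 0.0092). Of 7 inhibitors of the pathway 0 passed at either age, which for so few genes is near the 14.9% and 9.12% of all tested genes. Among 10 sensors and adaptors upstream of interferon, Myd88 was higher at both ages (0.32 and 0.30) and Irf5 lower at 11 weeks (-1.10). Of 37 further induced genes outside the 48, 4 passed at 11 weeks (Tor3a and Trim34a higher, Trim14 and Phf11d lower) and 3 at 19–21 weeks (Trim34a higher, Phf11d and Ube2l6 lower). These shares of 10.8% and 8.11% were below the 14.9% and 9.12% of all tested genes. In 9 of these 37 the gene lay on the members' majority side in at least 15 mice, led by Ddx60 (18), Rnf213, Lgals3bp and Uba7 (17). Of the other genes tested outside the 48, 3.44% reached 15 mice. Among the 8 receptors and kinases 0 did so, which is near that share for so few genes. The median was 13 mice for the 37 genes and 12.5 for the receptors and kinases, against 10 for the genes outside the 48.

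Markers of Kupffer cells, the resident macrophages of the liver, moved with the members in many mice. The summed level of 8 such markers was 150.5, 166, 152, 209 and 166 CPM in young controls and 146, 155, 175, 211 and 187 CPM in young Titan mice. It was 104, 125, 211, 198 and 229.6 CPM in older controls and 296, 195, 103, 190.3 and 160.3 CPM in older Titan mice. In 14 of 20 mice this sum lay on the members' majority side, and 3 of the 8 markers (Csf1r 16, Cd5l and Adgre1 15) did so in at least 15 mice. The corresponding number was 12 mice for hepatocyte and B cell markers, 10 for stellate cell markers, 9 for sinusoidal endothelial markers, 8 for T and NK cell markers and 11 for both plasmacytoid dendritic cells and neutrophils. At 11 weeks 3 of the 5 hepatocyte markers (Cyp2e1, Apoa1 and Cps1) were lower in Titan mice, with log2 fold changes of -0.76, -0.54 and -0.72. This is 60% of a short list, where 7.69% of all tested genes were lower. At 19–21 weeks 0 of the 5 passed, against 9.12% of all tested genes. Between the lines 0 of the 8 Kupffer markers passed at either age. Over all tested genes 14.9% passed at 11 weeks and 9.12% at 19–21 weeks, so 0 of 8 is near those shares. Of the 5 sinusoidal endothelial markers, Kdr and Pecam1 were lower in Titan mice at 11 weeks (40%) and Lyve1 at 19–21 weeks (20%). In such bulk samples, fewer cells of a type and less RNA per cell cannot be told apart, and the part of Kupffer cells in the shared deviation was not tested. Older Titan mouse 4 also had the highest B cell and neutrophil marker sums of its group (4.05 and 2.36 CPM), and its Kupffer sum of 190.3 CPM was the median. Reads outside annotated genes made up 18.4% to 41.96% of each library, highest in older Titan mouse 3. This share lay on the majority side in 10 mice, the number of reads on genes in 10, and the share of reads on more than 1 gene in 13.

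**Figure D4:**
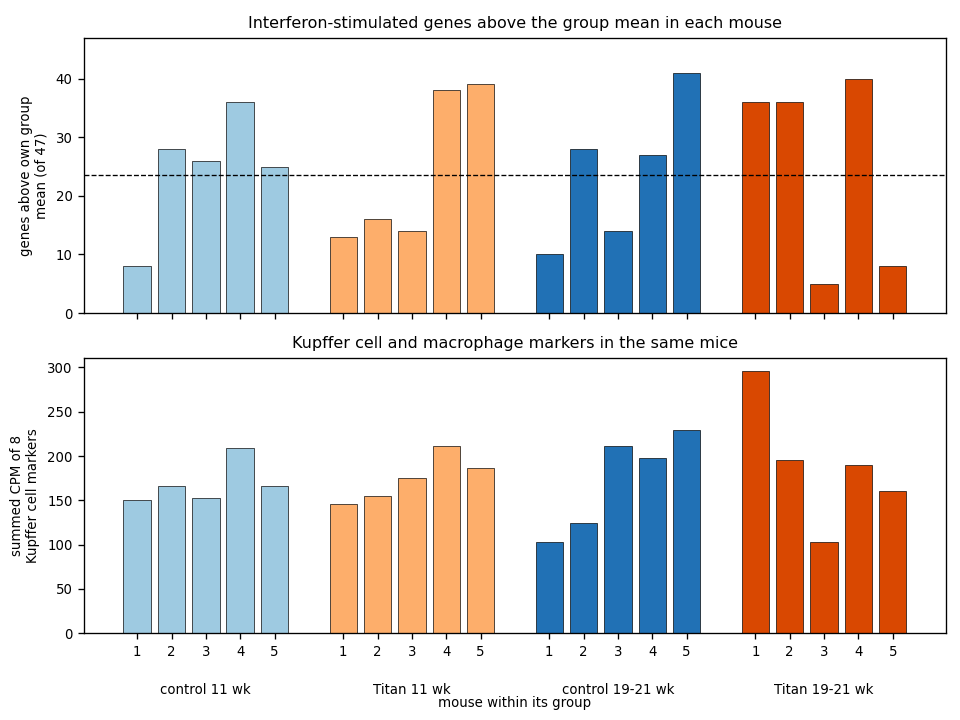
Number of the 47 members above the mean of their group (top, dashed line at the middle of the 47) and summed CPM of 8 Kupffer cell markers (bottom) in each of the 20 mice, coloured by group. The members' count ranges from 5 to 41 with high and low mice in every group, and older Titan mouse 3 has the lowest value in both panels.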

How the data were processed

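Liver libraries of 20 male mice (4 groups of 5, by line and age in the sample labels) were used. The authors mapped stranded, rRNA-depleted reads with STAR 2.5.3a to GRCm38 and deposited raw read counts per gene, without normalization, for 55573 gene IDs. The counts of the strand holding 96.83% to 97.55% of strand-assigned reads were used. Reads on several genes or positions were not counted. Symbols came from GENCODE M21 (55480 IDs), and 1562 genes on the Y chromosome and 109 encoding histones were removed. The 13783 genes that passed filterByExpr were fitted together in edgeR 4.0.16 (R 4.3.3) with TMM scaling and no covariates. Calls are two-sided quasi-likelihood p-values under 0.05 after Benjamini-Hochberg correction over the 13783 genes, and the SE is the log2 fold change over the square root of F; 95% intervals take this error as normal. Log2 CPM used a prior count of 2. Steps were tested on simulated data. Depth was 6794935 to 23295028 reads per mouse. The labels do not say whether the mice of a group were littermates, so p-values measure the spread between these mice.

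The members and lists were chosen with earlier results of these data known. Named with values are all members past the threshold in any comparison, the 8 markers Stat2, Irf9, Irf7, Isg15, Ifit1, Oas1a, Rsad2 and Cxcl10, pathway genes past the threshold, interferons and neighbouring copies. The other genes named, the majority-side counts and the neighbours of called members were chosen after their values were seen. Promoters and motif matches are from RefSeq (GRCm38.p6). Alternatives were DESeq2 1.42.0, RLE factors, both strands, 2 other filters, fits of only the groups compared, a replicate block, Y and histone genes kept, the share of reads outside genes as covariate, summed paralogs, a minimum log2 fold change of 0.5, and the removal of each mouse in turn. Tables and figures were made in Python 3.11.15 with numpy 2.4.6, pandas 2.3.3 and matplotlib 3.10.9. The proteome, histone and diet data of the study were not analysed here.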

Additional observations from a re-analysis of the deposited data

Results flagged for a closer look

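Each member was examined in each group of 5 mice for a highest or lowest mouse whose gap to the nearest other exceeded 0.71 of the group's range. Of 188 groups of values 13 met this, while about 1 in 20, or 9.4, would do so for independent, normally distributed values. These values are CPM, and members deviated together in the same mice, so 13 against 9.4 is not a test. In older Titan mouse 4, Zbp1 was at 9.45 CPM (others 3.81 to 4.79) and Xaf1, which encodes a proapoptotic factor, at 5.40 CPM (others 1.94 to 2.64). In older control mouse 5, Ifit3 was at 6.96 CPM (others 2.71 to 3.29), Gbp7 at 18.8 CPM (12.1 to 14.03) and Cxcl9 at 6.63 CPM (2.44 to 3.52). These are the mice with the most members above the mean of their groups, 40 and 41 of 47.

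Oas1a was low in young Titan mouse 2 (0.547 CPM, others 0.803 to 0.894) and in older Titan mouse 3 (0.243 CPM, others 0.879 to 1.10). Among young controls, Usp18 was high in mouse 4 (7.07 CPM, others 4.22 to 4.83), Bst2 in mouse 5 (75.9 CPM, others 64.7 to 67.5), and Iigp1 and Mid1 in mouse 2 (488.9 CPM, others 301.3 to 334, and 2.42 CPM, others 1.35 to 1.65). Among older controls, Ifi27 was low in mouse 1 (38.3 CPM, others 57.6 to 64.4) and Trim30d high in mouse 2 (2.71 CPM, others 0.172 to 0.839).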

How the results depend on the processing

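No called member changed direction in any setting. Mid1, Trim30d, Cxcl9, Bst2 and Ifi27 at 11 weeks and Mid1, Trim30d, Stat2 and Ifih1 at 19–21 weeks passed in all 9 alternatives. Trim30d, with as few as 2 reads in a mouse, was not tested under the filter of at least 10 counts in every mouse. Its 9 alternatives include the counts summed with Trim30a. Of these calls, only that of Bst2 was lost when a mouse was left out (2 of 20). Parp14 was lost in 5 alternatives and without 7 mice, and Zbp1 in 2 alternatives and without 3 mice. A log2 fold change over 0.5 left 1 lower member at 11 weeks. At 19–21 weeks DESeq2 and the fit of only the groups compared each gave 2 lower members, Oasl1 being the one added. Calls gained elsewhere were Mx2 and Iigp1 in DESeq2, Usp18 and Trim30a in the fit of only the groups compared, and Mx2, Iigp1, Oasl1, Gbp2, Ddx58, Trim25, Usp18 and Stat2 (interaction) when 1 mouse was left out. Mx2 with age in Titan mice was not called (0 members) in the fit of only the groups compared, with the replicate block or with the share of reads outside genes as covariate. DESeq2 gave 1 lower member with age in controls and 1 higher member for the interaction, both Stat2. Leaving out each mouse gave 3 to 3 higher and 1 to 4 lower members at 11 weeks, 3 to 5 and 1 to 2 at 19–21 weeks, and 0 to 1 higher members both with age in Titan mice and for the interaction. The median log2 fold change of the members ranged from -0.17 to -0.04 at 11 weeks, from -0.06 to 0.20 at 19–21 weeks, from 0.04 to 0.20 with age in Titan mice, from -0.08 to 0.07 with age in controls and from 0.01 to 0.22 for the interaction, so its sign was not stable at 19–21 weeks and with age in controls. The median share of mice on the majority side was 75%, with 73.7% to 78.9% when a mouse was left out, and the number of members at 15 or more mice was 31, against 32 with RLE factors and 25 with both strands. The cause of these changes was not tested. Deviations of mice with the same replicate number in different groups had correlations from -0.144 to 0.175, so the numbers were not taken as pairs, and the replicate block changed no other call of a member.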
